A study of Mus musculus with 4 samples.

Results

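The 51 genes described here encode the machinery that copies nuclear DNA and the enzymes that supply its deoxynucleotides, in group 2 innate lymphoid cells (ILC2s) from bronchoalveolar lavage (BAL) fluid. They were chosen from a list of gene symbols, and all 51 were found among the 24537 genes of the deposited tables. RNA-seq libraries of sorted ILC2s were available for 2 samples of mice treated with IL-33 and for 2 samples of mice with chronic house dust mite (HDM) exposure. IL-33, an epithelial alarmin that activates ILC2s directly, was given as 3 doses of 0.5 µg on alternate days, whereas 25 µg of HDM extract was given 3 times a week for 5 weeks. Cells were taken 1 day after the last dose from mice of about 8 to 16 weeks on a C57BL/6 background. All mice carried the GATIR knock-in, in which YFP is made from the *Gata3* locus, and ILC2s were sorted as lineage-negative Sca-1+ YFP+ cells. The labels give Gata3-YFP/YFP mice for IL-33 and Gata3-YFP/WT mice for HDM, while the methods of the study name homozygous mice only. The labels further call the populations CD25High after IL-33 and CD25Low after chronic HDM, and *Il2ra*, which encodes CD25, was measured at 432 and 376 RPKM after IL-33 against 27.6 and 22.0 RPKM after chronic HDM. Stimulus, duration, genotype label and CD25 label coincide with the groups and cannot be told apart. The number of mice behind a library was not stated in the sources used here, so the p-values below rest on how far these libraries differ within a group, which may be technical variation only.

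DNA replication is prepared in G1, when the origin recognition complex, CDC6 and CDT1 load the ring-shaped MCM helicase onto origins, and starts in S phase, when CDC45 and the GINS complex join MCM to form the active helicase. Polymerase alpha with primase then lays down primers, polymerases delta and epsilon extend them on the PCNA clamp that replication factor C loads, and FEN1 and LIG1 join the fragments of the lagging strand. Many of these genes are transcribed under E2F transcription factors as cells enter the cycle, and resting lymphocytes hold little of their RNA.

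Because replication genes are known for this shared control, their promoters are described before their values. Sequences from RefSeq (build GRCm38.p6, the primary coordinates of mm10; 250 bases before to 50 bases after the transcription start) were matched for 42 of the 51 genes. The start used there lay within 10 bases of the start in the deposited tables for 35 of the 42, and up to 6003 bases away for the others (*Timeless*). E2F-like letters, meaning TTCCCGC on either strand or the same with the middle letters changed (TTGGCGC as one form, then TTCGCGC as another and TTGCCGC as the last), were present in 26 of the 42 promoters, or 61.9%, compared with 18.2% of the 7375 promoters of tested genes and 12.2% of 17592 promoters in all. They were present in 7 of the 12 promoters of called genes and in 19 of the 30 of genes that were not called. Letters of the CCAAT box (CCAAT on either strand) were present in 59.5% of the 42 promoters and in 39.5% of those of tested genes. CHR-like letters (TTTGAA or TTCGAA on either strand), as found in promoters of late cell cycle genes, were present in 14.3% and 14.2%, respectively. Sp1-like letters (GGGCGG on either strand) were present in 73.8% and 66.0%. Median GC content was 60.7% in both sets, so the higher share of E2F-like letters did not go with a higher GC content. Of the 43 E2F-like matches, 31 began at most 100 bases before the start or after it, and 1 overlapped a Sp1-like match. These letters are matches in a sequence and not measured binding sites.

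The promoters of *Mcm6* and *Mcm5* (helicase subunits), *Rrm1* (large subunit of ribonucleotide reductase) and *Top2a* (topoisomerase II alpha) are printed because these genes passed the test below and hold different sets of these letters. Each is written 5′ to 3′ on the strand of the gene, with E2F-like, CCAAT and CHR-like letters of either strand in capitals. *Mcm6* (chr1:128359656-128359955, minus strand) holds 5 E2F-like matches that merge into 3 stretches, *Mcm5* (chr8:75109259-75109558, plus strand) holds 2 stretches, *Rrm1* (chr7:102441445-102441744, plus strand) holds 1, and *Top2a* (chr11:99024140-99024439, minus strand) holds 0 but 6 CCAAT and 4 CHR-like stretches.
Mcm6: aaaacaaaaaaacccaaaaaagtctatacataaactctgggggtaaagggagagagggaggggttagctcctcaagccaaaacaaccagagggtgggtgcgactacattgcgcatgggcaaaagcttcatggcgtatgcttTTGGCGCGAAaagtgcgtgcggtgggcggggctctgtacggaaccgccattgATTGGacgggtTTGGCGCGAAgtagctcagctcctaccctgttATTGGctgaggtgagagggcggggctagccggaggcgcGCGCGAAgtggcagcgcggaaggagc
Mcm5: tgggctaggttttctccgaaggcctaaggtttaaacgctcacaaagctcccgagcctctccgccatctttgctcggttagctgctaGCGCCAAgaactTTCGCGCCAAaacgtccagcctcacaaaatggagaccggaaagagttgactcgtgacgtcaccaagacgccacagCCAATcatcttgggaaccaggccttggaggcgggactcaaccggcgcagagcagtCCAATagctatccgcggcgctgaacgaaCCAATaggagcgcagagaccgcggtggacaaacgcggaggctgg
Rrm1: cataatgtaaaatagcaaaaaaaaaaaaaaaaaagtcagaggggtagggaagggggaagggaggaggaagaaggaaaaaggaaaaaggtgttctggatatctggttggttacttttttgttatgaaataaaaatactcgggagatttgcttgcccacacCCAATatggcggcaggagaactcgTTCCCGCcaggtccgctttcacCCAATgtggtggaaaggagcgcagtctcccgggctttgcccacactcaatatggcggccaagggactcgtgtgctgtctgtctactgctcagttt
Top2a: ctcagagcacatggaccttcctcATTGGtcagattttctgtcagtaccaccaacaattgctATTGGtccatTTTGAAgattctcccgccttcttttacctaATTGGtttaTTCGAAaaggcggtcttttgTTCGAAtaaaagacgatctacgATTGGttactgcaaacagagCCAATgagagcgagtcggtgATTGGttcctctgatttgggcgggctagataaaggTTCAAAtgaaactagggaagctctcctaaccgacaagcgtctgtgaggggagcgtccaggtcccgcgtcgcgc

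The 51 genes were higher after IL-33 as a group. Levels are given in RPKM as deposited, which are reads scaled to exon length and to the reads of the library and can be compared between genes. The median RPKM over the 51 genes was 54.5 and 50.6 in the IL-33 libraries and 10.9 and 9.70 in the chronic HDM libraries, whereas the median over all 9523 genes tested was 13.5 and 14.2 for IL-33 compared with 12.9 and 11.7 for chronic HDM. The summed level was 3413 ± 80.3 RPKM in IL-33 libraries (SD, n = 2) compared with 644 ± 57.5 RPKM in chronic HDM libraries (SD, n = 2), a ratio of 5.30. In a sorted bulk population, a smaller share of cells in S phase and less of this RNA per cell cannot be told apart.

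Differences were tested with limma on log2(RPKM + 1) over the 9523 genes that averaged 2 RPKM or more over all libraries, which all 51 genes did. *Orc1*, *Cdc6*, *Mcm8*, *Mcm10*, *Gins1*, *Gins2*, *Pole*, *Clspn* and *Timeless* averaged under 2 RPKM after chronic HDM. They passed the minimum only through their IL-33 values, and the counts below include them. *Cdc6*, *Mcm10*, *Gins1* and *Gins2* are among the genes called. Following the thresholds of the study, a call required a log2 fold change over 1 with a Benjamini-Hochberg adjusted p under 0.01. Of the 51 genes, 16 (31.4%) were called higher after IL-33, compared with 2.8% of all genes tested (267 of 9523). At an adjusted p under 0.05, 36 of the 51 passed, compared with 1898 of the 9523 genes tested in either direction. An unadjusted p under 0.05 was found for 45 of the 51 and for 3499 of the 9523. By limma, 0 of the 51 were called higher after chronic HDM, against 0.536% of all genes tested, and all 51 fitted differences were above 0. Both IL-33 libraries lay above both chronic HDM libraries in 49 of the 51 genes, compared with 41.7% of all genes tested, and the opposite order was seen in 0 of the 51, compared with 23.5%. The median log2 fold change of the 51 genes was 2.52, with a range from 0.46 (*Orc4*) to 5.33 (*Mcm2*), compared with a median of 0.28 over all genes tested. The 3 genes that had no read in either chronic HDM library had fitted differences above this median. Setting them to a floor of 3 reads raised them further and so could not change the median. The log2(RPKM + 1) scale understates the change of genes with low values. For a single gene, permuting 2 against 2 libraries exactly cannot give a two-sided p below 0.333, so every call rests on the spread that limma shares across genes.

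The calls lie close to the threshold and depended on the settings. The 16 adjusted p-values ran from 0.00497 to 0.00997, and the next genes, *Fen1*, *Lig1* and *Rpa1*, had 0.0101, 0.0109 and 0.0115. Of the 51 genes, 0 were called with limma without trend, with limma-voom on recovered reads, with a pseudocount of 0.1 or with no minimum RPKM, where 44 or 45 had an unadjusted p under 0.05 and the lowest adjusted p-values were 0.0135, 0.0137, 0.0148 and 0.0328. No gene of the 51 was called after leaving out either IL-33 library by limma (31 and 29 had an unadjusted p under 0.05), and 40 and 41 were called after leaving out chronic HDM replicate 1 and 2, respectively, while the median log2 fold change stayed between 2.40 and 2.60 in these 4 fits. With an IL-33 library left out, the spread within groups comes from the chronic HDM pair alone, and with a chronic HDM library left out from the IL-33 pair alone. With the data scaled by quantiles, by median of ratios or without 45S ribosomal RNA, 12, 7 and 6 of the 51 were called, and of all calls 55.4%, 68.0% and 65.8% were higher after IL-33 compared with 84.0% as deposited.

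**Figure D1:**
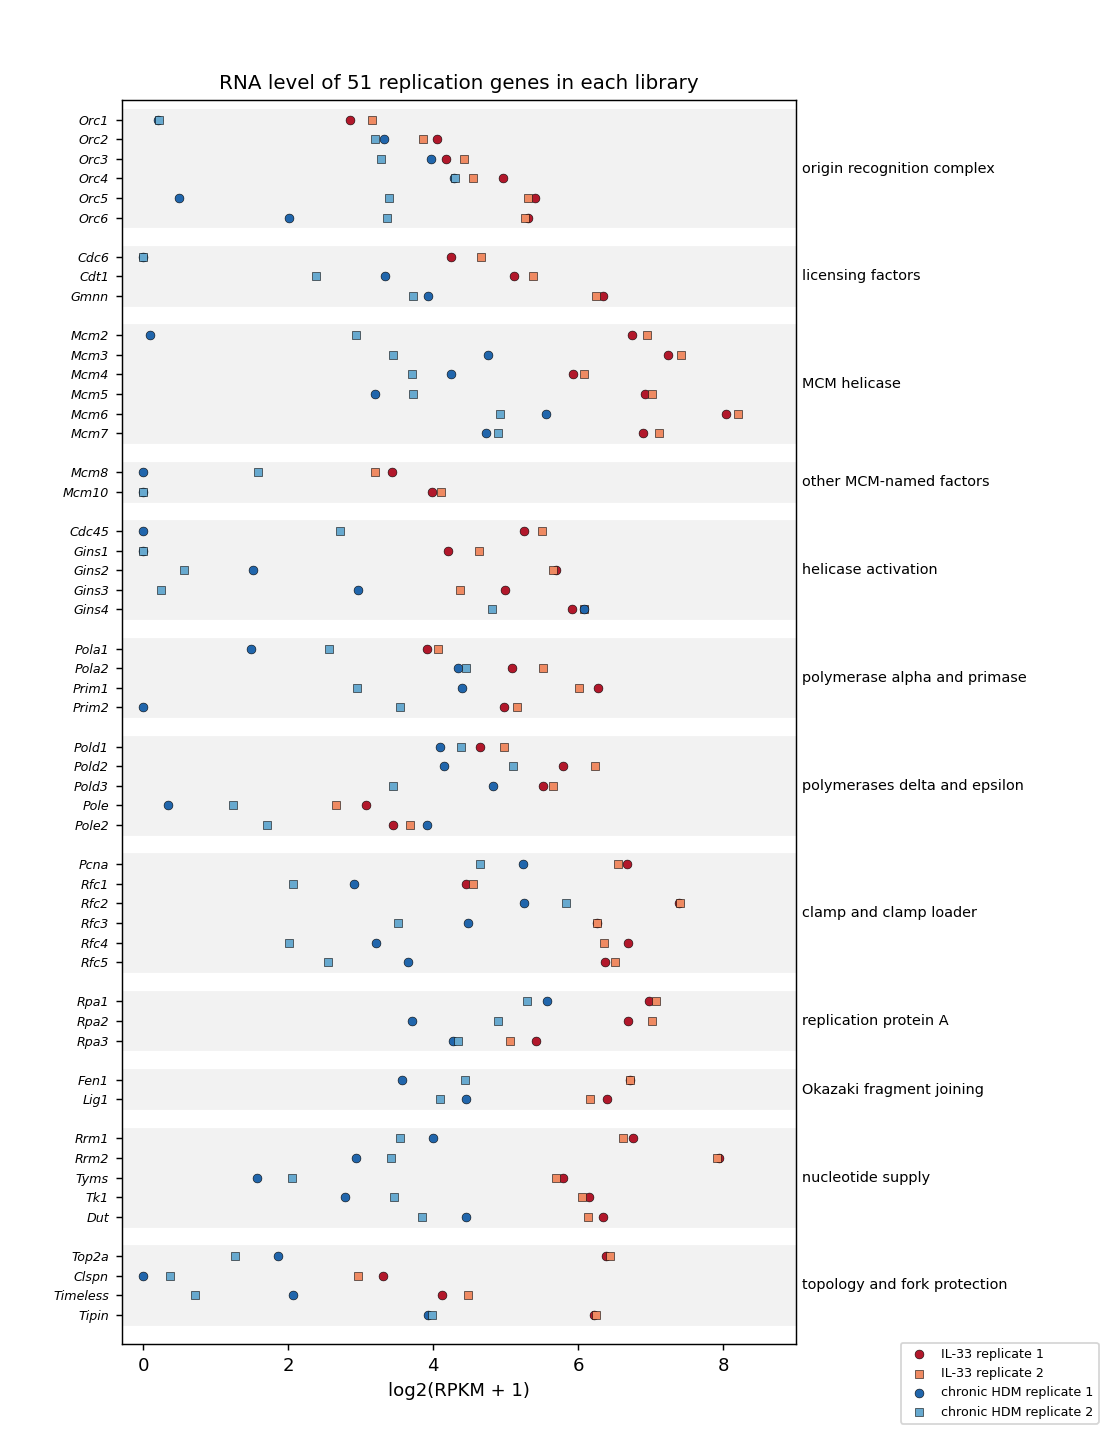
RNA level of each of the 51 genes as log2(RPKM + 1) in the 2 IL-33 libraries (red) and the 2 chronic HDM libraries (blue), 1 point per library, with genes grouped by role. The red points lie right of both blue points in 49 genes, with *Gins4* and *Pole2* as the exceptions, and the blue points are farther apart from each other than the red ones in most rows.

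The libraries differed in other respects that move with the groups. Mapped reads, as inferred from the RPKM values, numbered 13097388 and 11743272 after IL-33 compared with 19224118 and 18395562 after chronic HDM. Of the recovered reads in genes, 45S ribosomal RNA took 3.45% to 4.95% after IL-33 but 17.4% and 25.4% after chronic HDM. All 12 ILC2 markers examined had reads in every library, but not at equal levels. *Gata3*, whose locus carries the YFP used for the sort, was measured at 14.9 and 18.9 RPKM after IL-33 and at 216 and 195 RPKM after chronic HDM, and was called higher after chronic HDM together with *Il1rl1*, while *Il5* and *Il2ra* were called higher after IL-33. Summed levels of 15 macrophage markers were 286 to 1252 RPKM after IL-33 and 3109 to 8632 RPKM after chronic HDM, mostly *Chil3* and *Lyz2*. Of these 15 markers, 4 were at 0 in each IL-33 library, 8 in chronic HDM replicate 1 and 1 in chronic HDM replicate 2, where *Apoe*, *Fabp4* and *Cd68* were at 61.7, 53.6 and 51.7 RPKM. *Siglecf* was at 0 in both chronic HDM libraries and *Itgam* in 3 of the 4 libraries. Summed levels of 11 dendritic cell markers were 2269 to 2278 RPKM after IL-33 and 181 to 332 RPKM after chronic HDM, carried by the MHC class II genes *H2-Aa*, *H2-Ab1* and *Cd74*, while *Cd209a* was at 0 throughout and *Clec9a* in 3 of the 4 libraries. Basophil and mast cell markers (8 genes) summed to 43.9 to 52.2 RPKM after IL-33 and 0 to 4.08 RPKM after chronic HDM, and B cell markers (6 genes) to 27.4 to 38.4 RPKM and 6.80 to 8.75 RPKM, respectively. T cell (8 genes), eosinophil (7 genes) and epithelial markers (8 genes) were at 146 to 177, 6.42 to 22.8 and 5.52 to 14.8 RPKM after IL-33 and at 240 to 252, 46.1 to 59.0 and 25.7 to 76.0 RPKM after chronic HDM. Their part in the differences of the 51 genes was not tested.

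The origin recognition complex marks the sites where replication can start. Of its 6 genes, 0 were called by limma, compared with 2.8% of all genes tested, a share at which 0 of 6 does not set the complex apart. An unadjusted p under 0.05 was found for 3 of the 6 and an adjusted p under 0.05 for 2, compared with 3499 and 1898 of the 9523 genes tested. The complex split into 3 genes with large and 3 with small differences. *Orc1*, the subunit whose level is regulated over the cycle, was measured at 6.25 and 7.88 RPKM after IL-33 and at 0.156 and 0.163 RPKM after chronic HDM, which is 9 reads in each chronic HDM library (log2 fold change 2.79 ± 0.50 SE, adjusted p = 0.0200). *Orc5* was measured at 41.5 and 38.6 RPKM after IL-33 and at 0.407 and 9.50 RPKM after chronic HDM, values that lie far apart (3.42 ± 0.93, adjusted p = 0.0563). On the log2(RPKM + 1) scale its difference was the largest of the complex, whereas the ratio of mean RPKM was larger for *Orc1* (44.3) than for *Orc5* (8.09). *Orc6* had a log2 fold change of 2.60. *Orc2*, *Orc3* and *Orc4* had log2 fold changes of 0.70, 0.68 and 0.46, each with a 95% confidence interval that included 0. *Orc4*, with the smallest fitted difference of all 51 genes on this scale, was measured at 30.2 and 22.5 RPKM after IL-33 and at 18.5 and 18.8 RPKM after chronic HDM, and was the most abundant subunit in both chronic HDM libraries. Its ratio of mean RPKM was 1.41, compared with 1.34 for *Gins4* and 1.33 for *Pole2*.

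All 3 licensing factors had log2 fold changes over 2, and 2 of them were called. *Cdc6*, the ATPase that helps to load MCM onto origins, was read 1061 and 1290 times after IL-33 (17.9 and 24.3 RPKM). It had 0 reads in both chronic HDM libraries (adjusted p = 0.00718, limma). With both chronic HDM libraries set to a floor of 3 reads, *Cdc6* was 598-fold higher after IL-33. That floor covers counting error only and is no lower bound. *Cdc45*, for example, had 0 reads in chronic HDM replicate 1 and 179 in replicate 2. *Gmnn* encodes geminin, the inhibitor that binds CDT1 and prevents re-licensing. It was measured at 80.3 and 74.7 RPKM after IL-33 and at 14.2 and 12.1 RPKM after chronic HDM, so the groups did not overlap (2.47 ± 0.25, adjusted p = 0.00718). *Cdt1*, the partner of CDC6 in loading, was measured at 33.7 and 40.4 RPKM after IL-33 and at 9.12 and 4.19 RPKM after chronic HDM (2.39 ± 0.42, adjusted p = 0.0194) and was not called. The ratio of *Cdt1* to *Gmnn* was 0.420 and 0.541 after IL-33, compared with 0.640 and 0.346 after chronic HDM, so the ratios of the groups overlapped although both genes were higher in both IL-33 libraries.

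All 6 genes of the MCM helicase, of which 1 copy each forms the ring, had log2 fold changes over 2, and *Mcm5*, *Mcm6* and *Mcm7* were called. *Mcm6* was the most abundant subunit in every library and the most abundant of the 51 genes after IL-33, with 262 and 294 RPKM compared with 46.0 and 29.3 RPKM after chronic HDM (2.89 ± 0.27, adjusted p = 0.00687). *Mcm5* was measured at 120 and 129 RPKM after IL-33 and at 8.18 and 12.1 RPKM after chronic HDM (3.51 ± 0.28, adjusted p = 0.00687). *Mcm7* was measured at 118 and 137 RPKM after IL-33 and at 25.5 and 28.8 RPKM after chronic HDM (2.19 ± 0.22, adjusted p = 0.00718). The groups did not overlap for any of these 3 subunits.

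*Mcm2* had the largest fitted difference of all 51 genes on the log2(RPKM + 1) scale, which understates genes without reads such as *Cdc6*, and its chronic HDM libraries differed from each other. It was measured at 106 and 122 RPKM after IL-33, at 0.062 RPKM (4 reads) in chronic HDM replicate 1 and at 6.68 RPKM (412 reads) in chronic HDM replicate 2 (5.33 ± 0.91, adjusted p = 0.0180). Without chronic HDM replicate 1 its log2 fold change was 3.90. *Mcm3* had a log2 fold change of 3.22 (adjusted p = 0.0120) and *Mcm4*, with the smallest difference of the ring, was measured at 59.7 and 66.4 RPKM after IL-33 and at 18.0 and 12.1 RPKM after chronic HDM (2.02 ± 0.30, adjusted p = 0.0129). In both IL-33 libraries the subunits spanned 4.40-fold and 4.44-fold from *Mcm4* to *Mcm6*, and from *Mcm2* to *Mcm6* they spanned 742-fold in chronic HDM replicate 1 and 4.38-fold in chronic HDM replicate 2. *Mcm10*, a fork factor that is no part of the ring, was measured at 14.8 and 16.2 RPKM after IL-33. It had no reads after chronic HDM (adjusted p = 0.00815, limma) and was 338-fold higher after IL-33 at the floor of 3 reads. *Mcm8*, of the MCM8-MCM9 helicase used in recombination, was measured at 9.78 and 8.17 RPKM after IL-33 and at 0 and 1.99 RPKM after chronic HDM (2.52 ± 0.66, adjusted p = 0.0506).

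The factors that convert loaded MCM into the active helicase included some of the largest differences and 1 of the smallest. *Gins2* was measured at 50.9 and 49.4 RPKM after IL-33 and at 1.87 and 0.475 RPKM after chronic HDM (4.64 ± 0.45, adjusted p = 0.00687). *Gins1* was measured at 17.4 and 23.9 RPKM after IL-33 and had no reads after chronic HDM (adjusted p = 0.00718, limma). At the floor of 3 reads it was 139-fold higher after IL-33. *Gins4*, a subunit of the same 4-protein complex, was measured at 59.3 and 66.5 RPKM after IL-33 and at 66.6 and 27.1 RPKM after chronic HDM, so that the groups overlapped (0.55 ± 0.44, adjusted p = 0.413). The ratio of *Gins2* to *Gins4* was 0.858 and 0.742 after IL-33 but 0.0280 and 0.0176 after chronic HDM. The RNAs of the GINS subunits thus did not keep 1 ratio between the groups. *Cdc45*, the partner of GINS, was measured at 37.3 and 44.2 RPKM after IL-33 and at 0 and 5.57 RPKM after chronic HDM (4.02 ± 0.89, adjusted p = 0.0333), and *Gins3* had a log2 fold change of 3.08 with 6.81 and 0.181 RPKM after chronic HDM.

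Both polymerase groups had a median log2 fold change below that of the 51 genes (2.52). By limma, 0 of these 9 genes were called, compared with 2.8% of all genes tested. Of the 9, 7 had an unadjusted p under 0.05, compared with 3499 of the 9523 genes tested. In polymerase alpha and primase the median log2 fold change was 2.22. *Prim2*, the large primase subunit, was measured at 30.5 and 34.8 RPKM after IL-33 but at 0 and 10.6 RPKM after chronic HDM (3.30 ± 1.12, adjusted p = 0.0949). *Prim1*, the catalytic primase subunit, and *Pola1*, the catalytic subunit of polymerase alpha, had log2 fold changes of 2.48 and 1.96. *Pola2*, the accessory subunit, was measured at 33.0 and 44.8 RPKM after IL-33 and at 19.3 and 20.9 RPKM after chronic HDM (0.91 ± 0.29, adjusted p = 0.0799).

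Polymerases delta and epsilon, which copy the lagging and leading strands, had a median log2 fold change of 1.39, the lowest of the 12 role groups. *Pole*, the catalytic subunit of polymerase epsilon, was low in all libraries, with 7.43 and 5.29 RPKM after IL-33 compared with 0.272 and 1.36 RPKM after chronic HDM (2.07 ± 0.56, adjusted p = 0.0545). *Pold1*, the catalytic subunit of polymerase delta, was measured at 23.9 and 30.4 RPKM after IL-33 and at 16.1 and 19.9 RPKM after chronic HDM (0.56 ± 0.30, adjusted p = 0.231). *Pold2*, an accessory subunit, was measured at 54.5 and 73.9 RPKM after IL-33 and at 16.7 and 33.3 RPKM after chronic HDM (1.39 ± 0.39), and its log2 fold change was 0.91 or 1.86 with 1 chronic HDM library left out. *Pold3*, another accessory subunit, was measured at 44.7 and 49.5 RPKM after IL-33 and at 27.5 and 9.86 RPKM after chronic HDM (1.45 ± 0.49), and its log2 fold change was 0.76 or 2.15 with 1 chronic HDM library left out. *Pole2* was measured at 9.94 and 11.9 RPKM after IL-33 and at 14.1 and 2.27 RPKM after chronic HDM, so that the groups overlapped. The subunits outside the 51 genes were not called either, with log2 fold changes of 0.73 for *Pole3*, 0.86 for *Pole4* and -0.89 for *Pold4*, the small subunit of polymerase delta.

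The clamp and its loader had log2 fold changes from 1.67 to 3.92. All 6 genes passed an adjusted p under 0.05, compared with 1898 of the 9523 genes tested. *Rfc4*, a small subunit of the loader, was measured at 102 and 81.3 RPKM after IL-33 and at 8.22 and 3.03 RPKM after chronic HDM (3.92 ± 0.46, adjusted p = 0.0088). *Rfc5* was measured at 81.9 and 89.7 RPKM after IL-33 and at 11.6 and 4.84 RPKM after chronic HDM (3.34 ± 0.42, adjusted p = 0.00997). These were the only 2 called genes of the group. *Pcna*, the clamp, had the smallest difference, with 101 and 92.4 RPKM after IL-33 compared with 36.6 and 24.1 RPKM after chronic HDM (1.67 ± 0.28, adjusted p = 0.0173). *Rfc2* was the most abundant of the group in every library, with 168 and 169 RPKM after IL-33 compared with 37.2 and 56.0 RPKM after chronic HDM. *Rfc1*, the large subunit, and *Rfc3* had log2 fold changes of 2.02 and 2.26.

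Replication protein A, the trimer that coats single-stranded DNA, was not called for any of its 3 subunits by limma, compared with 2.8% of all genes tested. All 3 had an unadjusted p under 0.05, compared with 3499 of the 9523 genes tested. *Rpa2* was measured at 103 and 128 RPKM after IL-33 and at 12.1 and 28.7 RPKM after chronic HDM (2.55 ± 0.43, adjusted p = 0.0175). *Rpa1*, the large DNA-binding subunit, had a log2 fold change of 1.59 (adjusted p = 0.0115). *Rpa3* was measured at 41.6 and 32.3 RPKM after IL-33 and at 18.4 and 19.4 RPKM after chronic HDM (0.92 ± 0.28, adjusted p = 0.0712). The ratio of *Rpa3* to *Rpa1* was 0.333 and 0.243 after IL-33, compared with 0.394 and 0.507 after chronic HDM. Of the genes that join lagging-strand fragments, *Fen1*, the flap nuclease, was measured at 105 and 104 RPKM after IL-33 and at 10.9 and 20.6 RPKM after chronic HDM (2.72 ± 0.35, adjusted p = 0.0101). *Lig1*, the ligase that seals the nicks, was measured at 83.3 and 70.7 RPKM after IL-33 and at 20.9 and 16.1 RPKM after chronic HDM (2.01 ± 0.27, adjusted p = 0.0109). Both missed the threshold by little.

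Nucleotide supply was the role group with the highest share of calls, with 4 of 5 genes and a median log2 fold change of 2.98. *Rrm2*, the regulated small subunit of ribonucleotide reductase, which makes deoxynucleotides from ribonucleotides, was measured at 245 and 241 RPKM after IL-33 and at 6.65 and 9.70 RPKM after chronic HDM (4.75 ± 0.27, adjusted p = 0.00497, the lowest of the 51 genes). Its level was above that of 96.6% and 96.9% of tested genes after IL-33 and above that of 32.1% and 44.0% after chronic HDM. *Rrm1*, the large subunit of the same enzyme, was measured at 107 and 97.2 RPKM after IL-33 and at 15.0 and 10.6 RPKM after chronic HDM (2.92 ± 0.28, adjusted p = 0.00687). The ratio of *Rrm2* to *Rrm1* was 2.28 and 2.48 after IL-33 but 0.443 and 0.916 after chronic HDM, so that *Rrm2* was the more abundant subunit after IL-33 and the less abundant one after chronic HDM.

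Both enzymes of the nucleotide supply group that make thymidylate were called. *Tyms*, thymidylate synthase, was measured at 54.5 and 50.6 RPKM after IL-33 and at 1.96 and 3.13 RPKM after chronic HDM (3.94 ± 0.35, adjusted p = 0.00687). *Tk1*, the cytosolic thymidine kinase of the salvage route, was measured at 70.1 and 65.3 RPKM after IL-33 and at 5.91 and 10.02 RPKM after chronic HDM (2.98 ± 0.33, adjusted p = 0.00812). *Dut*, the dUTPase that keeps uracil out of DNA, was measured at 79.9 and 69.5 RPKM after IL-33 and at 20.8 and 13.3 RPKM after chronic HDM and was not called (2.09 ± 0.30, adjusted p = 0.0127).

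Enzymes with a related activity that also serve cells outside S phase were not called. *Rrm2b*, the p53-induced small subunit of ribonucleotide reductase, was measured at 3.78 and 3.54 RPKM after IL-33 and at 1.16 and 4.14 RPKM after chronic HDM (0.48 ± 0.59, adjusted p = 0.595). *Tk2*, the mitochondrial thymidine kinase, was measured at 14.5 and 17.7 RPKM after IL-33 and at 67.5 and 56.5 RPKM after chronic HDM, with a fitted difference opposite to that of *Tk1* that was not called (-1.89 ± 0.27, adjusted p = 0.0121). The ratio of *Tk1* to *Tk2* was 4.85 and 3.70 after IL-33 but 0.0876 and 0.177 after chronic HDM. *Top2b*, the topoisomerase II of resting cells, was measured at 13.5 and 13.9 RPKM after IL-33 and at 14.6 and 11.9 RPKM after chronic HDM, with overlapping groups (0.05, 95% confidence interval -0.75 to 0.85), and the sign of its fitted difference depended on the scaling. The ligases *Lig3* and *Lig4* and the mitochondrial polymerase *Polg* had log2 fold changes of 0.72, 1.15 and -0.48, with confidence intervals that included 0. *Samhd1*, which breaks deoxynucleotides down, was measured at 58.8 and 69.2 RPKM after IL-33 and at 90.7 and 67.5 RPKM after chronic HDM, and the groups overlapped (-0.29 ± 0.25, adjusted p = 0.437).

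**Figure D2:**
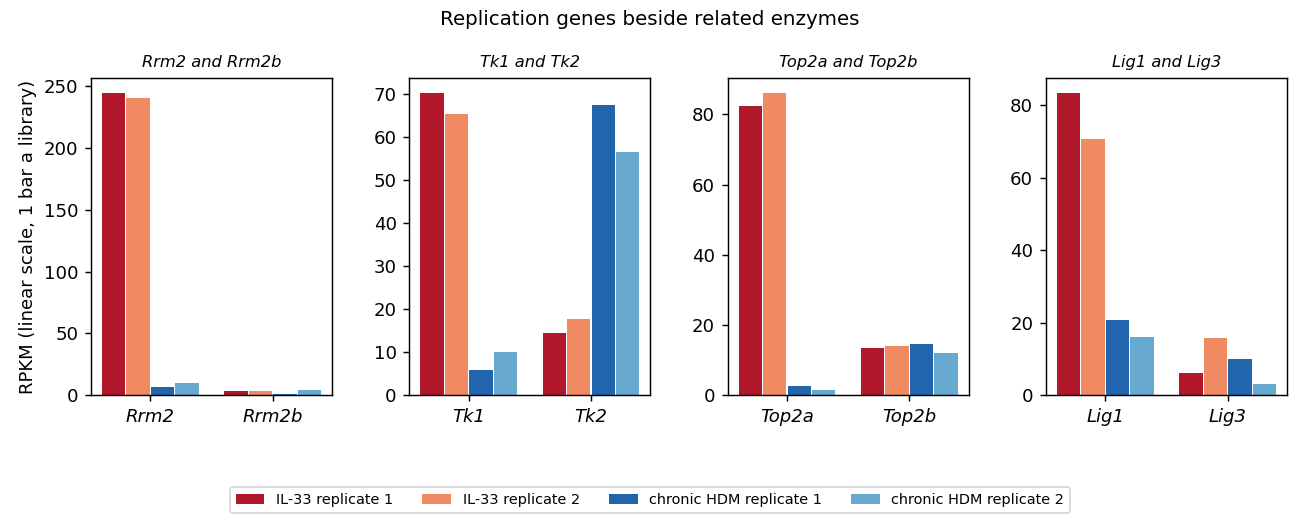
RPKM on a linear scale, 1 bar per library, of *Rrm2*, *Tk1*, *Top2a* and *Lig1* (left in each panel) beside *Rrm2b*, *Tk2*, *Top2b* and *Lig3* (right), with IL-33 libraries in red and chronic HDM libraries in blue. *Rrm2*, *Tk1*, *Top2a* and *Lig1* were higher in both IL-33 libraries, *Rrm2b*, *Top2b* and *Lig3* overlapped between the groups, and *Tk2* was higher in both chronic HDM libraries.

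Of the genes for DNA topology and fork protection, *Top2a*, which untangles the daughter strands in S phase and mitosis, was measured at 82.4 and 86.1 RPKM after IL-33 and at 2.61 and 1.40 RPKM after chronic HDM (4.86 ± 0.35, adjusted p = 0.00665). The ratio of *Top2a* to *Top2b* was 6.12 and 6.19 after IL-33 but 0.179 and 0.117 after chronic HDM. *Tipin*, of the TIMELESS-TIPIN pair that travels with the fork, was measured at 73.8 and 75.2 RPKM after IL-33 and at 14.2 and 14.8 RPKM after chronic HDM, the tightest pairs of the group and its smallest difference (2.28 ± 0.24, adjusted p = 0.00723). *Timeless*, its partner, had a log2 fold change of 2.91 with 3.19 and 0.639 RPKM after chronic HDM (adjusted p = 0.0245). *Clspn*, which encodes the checkpoint mediator claspin, was measured at 8.89 and 6.82 RPKM after IL-33 and at 0 and 0.296 RPKM after chronic HDM (2.95 ± 0.51, adjusted p = 0.0187).

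**Figure D3:**
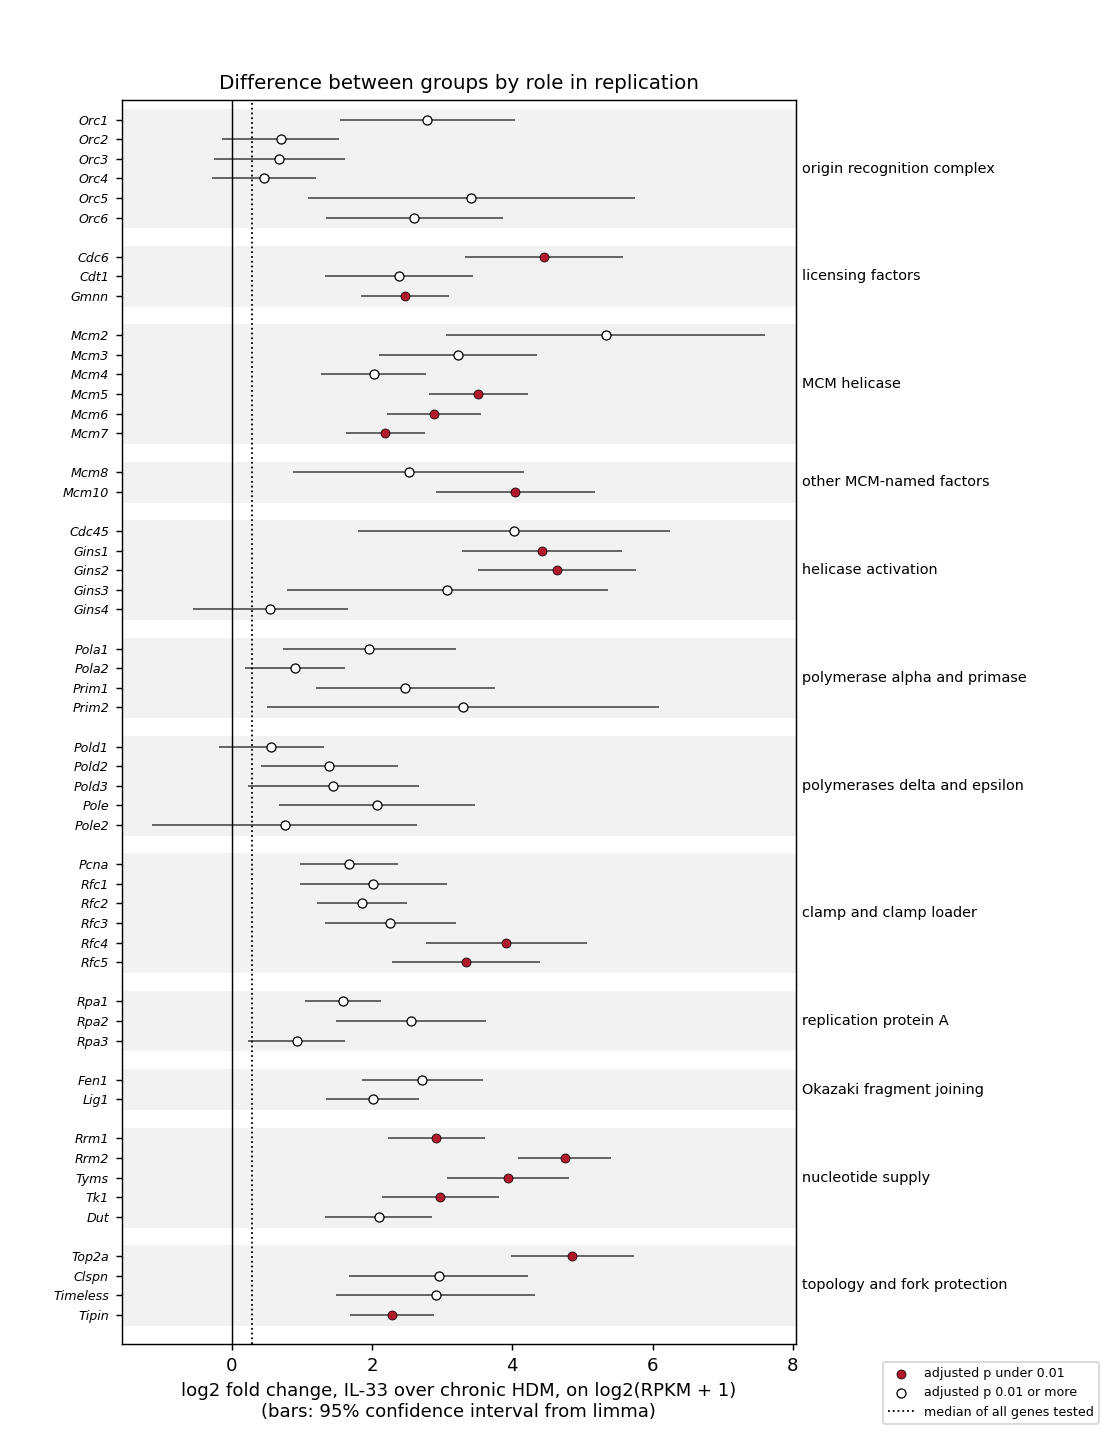
IL-33 over chronic HDM log2 differences of the 51 genes on log2(RPKM + 1), by role, with 95% confidence intervals from limma. Filled points are the 16 called genes, the dotted line is the median of all genes tested (0.28), and the intervals lie above 0 in 45 of the 51 genes.

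The chronic HDM libraries were less alike than the IL-33 libraries. The chronic HDM libraries differed by over 2-fold in 23 of the 51 genes and the IL-33 libraries in 0. Neither chronic HDM library was the higher one throughout, since replicate 1 was higher for 24 genes and replicate 2 for 24. The median SD of a pair on the log2(RPKM + 1) scale was 0.132 for IL-33 compared with 0.476 for chronic HDM for the 51 genes, and 0.162 and 0.404 for all genes tested. No reads were found for 7 of the 51 genes in chronic HDM replicate 1 and for 3 in replicate 2. Among all 9523 genes tested, 588 and 205 had no reads in these libraries and 71 in each IL-33 library. Several genes that were not called had large differences and a wide spread between the chronic HDM libraries, among them *Mcm2*, *Cdc45*, *Orc5* and *Prim2*.

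Some values share sequence with neighbouring genes. The library method keeps no strand, so reads from overlapping genes on opposite strands cannot be told apart. In the gene annotation, an antisense transcript covers 90.9% of the exon bases of *Fen1*, whose values are therefore uncertain. Overlaps with *Lat2*, *Wsb2*, *Eif4a2* and *Ap4m1* cover 19.1%, 17.8%, 13.4% and 10.8% of the exon bases of *Rfc2*, *Rfc5*, *Rfc4* and *Mcm7*. A neighbour on the same strand covers 14.4% of *Pole2*, and antisense genes cover 11.9% of *Orc1* and 10.6% of *Orc2*. For *Gins2*, the annotated model of 3900 exon bases overlaps *Gse1* over 70.7%, but the deposited values rest on 1031 bases. The other shares also refer to annotated models, whose length can differ from that behind the deposited values, as for *Rfc2* (4995 and 1505 bases). The overlap of the bases behind the deposited values was not examined.

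A list of 77 further genes of replication and nucleotide metabolism gave smaller differences. Of the 74 that were tested, 8 were called higher after IL-33 (10.8%, compared with 2.8% of all genes tested) and 0 higher after chronic HDM by limma, with a median log2 fold change of 1.02. *Dtl*, which encodes the receptor for PCNA-dependent destruction of CDT1, was measured at 12.1 and 15.9 RPKM after IL-33 and at 0.087 and 0.052 RPKM after chronic HDM (3.80 ± 0.47, adjusted p = 0.00987). *Chaf1a*, the large subunit of the chromatin assembly factor that works behind the fork, was measured at 26.0 and 27.0 RPKM after IL-33 and at 0 and 0.958 RPKM after chronic HDM (4.30 ± 0.50, adjusted p = 0.00857). The other 6 called genes make nucleotides or their one-carbon units. Of the called genes, *Dtl*, *Chaf1a* and *Shmt1* averaged under 2 RPKM after chronic HDM and passed the minimum only through their IL-33 values.

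*Shmt1*, the cytosolic serine hydroxymethyltransferase that feeds thymidylate synthesis, was measured at 26.8 and 27.7 RPKM after IL-33. It was without reads after chronic HDM (adjusted p = 0.00687, limma) and was 350-fold higher after IL-33 at the floor of 3 reads. The mitochondrial one-carbon enzymes *Shmt2* and *Mthfd2* had log2 fold changes of 2.23 and 3.09 and levels of 261 and 289 RPKM and of 251 and 273 RPKM after IL-33. *Prps1*, which makes the ribose phosphate for nucleotides, and *Paics*, of purine synthesis, had log2 fold changes of 2.79 and 1.76. *Nme1*, a nucleoside diphosphate kinase, was the most abundant of these genes, with 920 and 782 RPKM after IL-33 compared with 148 and 178 RPKM after chronic HDM (2.38 ± 0.18, adjusted p = 0.00665), although its reads may be shared with the closely similar *Nme2*. Among the genes that were not called, *Nme2*, *Ssrp1* (a histone chaperone subunit) and *Guk1* (guanylate kinase) had high mean levels, with log2 fold changes of 0.36, 1.44 and -0.11. The 6 genes of mitochondrial DNA replication had a median log2 fold change of 0.01, and their log2 fold changes ran from -0.96 to 2.13. By limma 0 of the 6 were called, where 2.8% of all genes tested were called higher after IL-33. The 2 of them with an unadjusted p under 0.05 had opposite signs, with 2.13 for *Twnk*, the mitochondrial helicase, and -0.96 for *Polrmt*, the mitochondrial RNA polymerase.

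**Figure D4:**
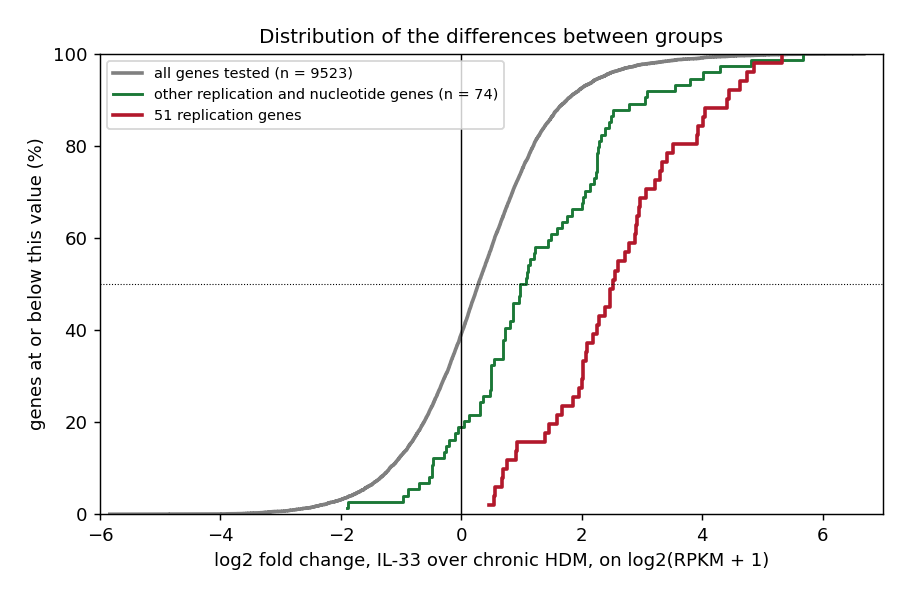
Share of genes (%) at or below each log2 difference of IL-33 over chronic HDM, for all 9523 genes tested (grey), the 74 further replication and nucleotide genes (green) and the 51 genes (red). The curves cross 50% at medians of 0.28, 1.02 and 2.52.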

How the data were processed

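ILC2s sorted from BAL fluid were profiled by RNA-seq (Smart-seq2, which keeps no strand and no molecular identifiers) in 2 IL-33 and 2 chronic HDM libraries. The authors aligned single reads to the mm10 build with HISAT2, which the submitters' processing notes give as version 2.0.4, counted exons with HOMER and deposited RPKM values per gene, which were used as they are. The authors tested counts with DESeq2, whereas reads recovered from RPKM served here for read numbers, floors and 1 alternative only.

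Depth was inferred for each library as the value at which RPKM multiplied by exon length and depth came closest to whole reads. At that depth, 99.5% to 100% of values above 0 gave whole reads (within 0.1 read). The search favoured such a share, which is thus no independent check. Recovered reads in genes numbered 10696041 to 16092283 per library. Floors of 3 reads cover counting error only. Values were transformed as log2(RPKM + 1), with a pseudocount of 1. Genes averaging 2 RPKM or more were tested with limma 3.58.1 in R 4.3.3 (intensity trend, two-sided, Benjamini-Hochberg over all tested genes). The procedure was also run on simulated data with the same spread in every library. It was thus not tested for a chronic HDM pair that varies more than the IL-33 pair, as in these data. A limma test stands in for the count model of the study.

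The 51 genes, the further gene lists and the cell markers were chosen with earlier results of these data known. Genes named with values per library are all called members, the extremes of each role group, related enzymes, and of the further list the called genes and the 4 uncalled ones of highest mean level, of which 1 is not reported here. Other members and markers were named once their values were known. Overlaps with neighbours come from the annotation of the same build. The files use older symbols in part, and 3 further list genes (*Ticrr*, *Recql4*, *Mcm9*) were below the minimum. Protein sequences were not analysed here. Alternatives covered the pseudocount, the minimum, the scaling, the variance model, limma-voom on recovered reads, the threshold, a replicate block and leaving out each library. Figures were drawn with matplotlib 3.10.9.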

Additional observations from a re-analysis of the deposited data

How the results depend on the processing

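The median log2 fold change of the 51 genes was 2.52 and lay between 2.17 and 2.79 under the 16 alternatives, and its excess over the median of all genes tested lay between 1.98 and 2.46. It was 2.79 and 2.23 with a pseudocount of 0.1 and 2, 2.69 with limma-voom, 2.17 with quantile normalization, 2.33 with median-of-ratios scaling, 2.27 with scaling without 45S ribosomal RNA, and 2.40 to 2.60 without each library in turn. Those 3 scalings moved the median of all genes by -0.29, -0.21 and -0.26.

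The counts of calls depended on the settings. The members called higher after IL-33 (16), the further list genes called (8), all genes called higher after IL-33 (267) and all genes called higher after chronic HDM (51) became 36, 29, 1311 and 455 at an adjusted p under 0.05, and 0 in each case with limma without trend, limma-voom, a pseudocount of 0.1 or no minimum. At unadjusted p under 0.05, 44 or 45 members passed in these 4 fits, with lowest adjusted p-values of 0.0135, 0.0137, 0.0148 and 0.0328. With a mean of at least 5 RPKM, which tests fewer genes, all-gene counts were 502 and 107. Median-of-ratios scaling gave 7, 4 and 85, and scaling without 45S ribosomal RNA gave 6, 4 and 75, for members, further list and all genes higher after IL-33, and quantile normalization gave 148 and 119 over all genes. Without each library in turn the 4 counts ranged over 0 to 41, 0 to 31, 0 to 1872 and 0 to 598, with 0 where an IL-33 library was left out, a fit in which the lone library is assumed to vary like the chronic HDM pair. With the replicate block the counts were 36, 22, 987 and 267. Deviations of libraries with the same number had a correlation of -0.0385 across 9523 genes. With so few libraries, this correlation does not settle whether the numbers pair them.

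The fitted differences of the members were above 0 for all 51, or for the 47 tested with a mean of at least 5 RPKM, under all alternatives except without chronic HDM replicate 2, where *Gins4* and *Pole2* changed sign. Without each library in turn, *Gins4* ranged from -0.084 to 1.19, *Pole2* from -0.35 to 1.86, *Lig3* from -0.0033 to 1.45, *Rrm2b* from -0.14 to 1.11 and *Top2b* from -0.086 to 0.18, each with 1 chronic HDM library left out at either end. *Top2b* was at -0.069 with limma-voom and at -0.17, -0.11 and -0.22 under median-of-ratios, quantile and 45S-free scaling. Of 1029 values of single genes under an alternative, these included, 752 kept direction and side of the threshold, 179 lost the call, 89 gained it and 9 changed sign. Causes of these changes were not tested. Depth was at least 10696041 reads in genes, and genes without reads have a bound only.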
